A study of Arabidopsis thaliana with 17 samples.

Results

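The response of already primed Arabidopsis thaliana seedlings to a later heat was measured by setting wild-type arrays labelled primed and triggered (3 arrays) against wild-type arrays labelled primed (2 arrays), chosen by their titles as 5 of the 17 arrays of the series. Seedlings of both groups, accession Col-0, had spent 1 h at 37 °C in a water bath at 4 d of age and had then recovered for 3 d. The primed and triggered seedlings received a further 1 h at 37 °C right before they were collected at 7 d of age, and the primed seedlings were collected at that age without it. An earlier heat is therefore common to all 5 arrays, and the comparison is about the later one. Beside it stand 3 triggered wild-type arrays (heated for the first time at 7 d) and 3 naive wild-type arrays (never heated), which give the same heat without priming. The remaining 6 arrays came from an hsfa2 knockout line, a mutant that lacks a heat shock transcription factor (2 arrays each for primed and triggered, triggered, and naive). They entered the estimate of spread, and their means are given for a single flagged probe set. Plants grew under long days of 16 h light and a temperature of 22 °C, after stratification at 4 °C in every group. Whole seedlings were used, so fewer cells of a type and less RNA per cell cannot be told apart. Arrays of 1 group are described as biological replicates, but separate cultures are not named, so p-values measure the spread between arrays. That spread is pooled over the 7 groups of the series, so an SE or p-value does not describe the 5 compared arrays alone.

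Heat unfolds proteins, and plant cells answer through heat shock transcription factors that switch on genes for chaperones. Small heat shock proteins hold unfolding clients, HSP70 and its co-chaperones refold them, and further systems act in the endoplasmic reticulum, chloroplast and mitochondrion. A mild heat leaves plants more tolerant of a later one, a state called priming or acquired thermotolerance.

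Values are log2 intensities of deposited RMA values, so a difference of 1 is a factor of 2. Calls were made where limma, fitted across all arrays and adjusted over 22746 probe sets, gave an adjusted p under 0.05. An exact permutation test of 3 arrays against 2 could not go below p = 0.1, so no such test is given. Photosynthesis genes, which mark leaf tissue, were strongly expressed in every array (RCA, the activase of Rubisco, had 13.59, 13.34 and 13.60 in the primed and triggered arrays and 13.75 and 13.84 in the primed arrays). None of the 7 seed storage genes looked for had a listed probe set. Median intensities were 53.9 to 56.1 in the primed and triggered arrays and 60.1 to 64.2 in the primed arrays. The bacterial hybridization control bioB stood at 7.57 ± 0.36 in the primed and triggered arrays and at 4.41 ± 0.014 in the primed arrays (SD, n = 3 and 2), and naive replicate 3 shared the low level (4.43). The spiked poly-A controls stood at 7.0, 6.58 and 6.30 in the primed and triggered arrays and at 9.82 and 9.52 in the primed arrays, with 9.95 in naive replicate 3 and 8.89 in naive replicate 2. Among the 5 arrays, the levels of these controls and the later heat cannot be told apart. A fit with a term for the 3 low-bioB arrays is therefore given beside the gene groups, called the bioB-adjusted fit. Both primed arrays are low, so the term takes its size from 1 array, naive replicate 3, against the other naive arrays. It cannot be told apart from anything else in which that array differs, so calls kept or lost in this fit rest on it. The difference between the 3′ and 5′ probe sets of GAPDH, a sign of RNA integrity, was 0.93 ± 0.66 in the primed and triggered arrays and 2.04 ± 0.28 in the primed arrays. It was 2.25 in naive replicate 3, and its part in the results was not tested.

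Primed and triggered seedlings differed from primed seedlings in 4802 of 22746 probe sets (21.1%), with 1936 higher (8.51%) and 2866 lower (12.6%). The shares higher and lower are the background for the counts of members called in the gene groups below. Changes of at least 2-fold numbered 881 higher (3.87%) and 1204 lower (5.29%). Rises reached farther than falls: 128 called probe sets rose by at least 16-fold, whereas 111 fell by at least 4-fold. The groups did not overlap in 5348 probe sets that were higher (23.5%) and 5282 that were lower (23.2%), called or not. The split depended on scaling, since 40.3% of the calls were higher with the values as deposited and 69.1% of 6091 calls were higher once each array was centred on its median, which moved the median change of all probe sets to 0.19, against 0.013 as deposited. In the bioB-adjusted fit, whose median SE was 0.30 against 0.19, 954 probe sets were called, of which 870 were among the 4802. Without primed replicate 1, 3088 probe sets were called, and 3431 without primed replicate 2. The 20 largest rises and 20 largest falls among probe sets with exactly 1 listed gene and no overlap between the groups are shown array by array.

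**Figure D1:**
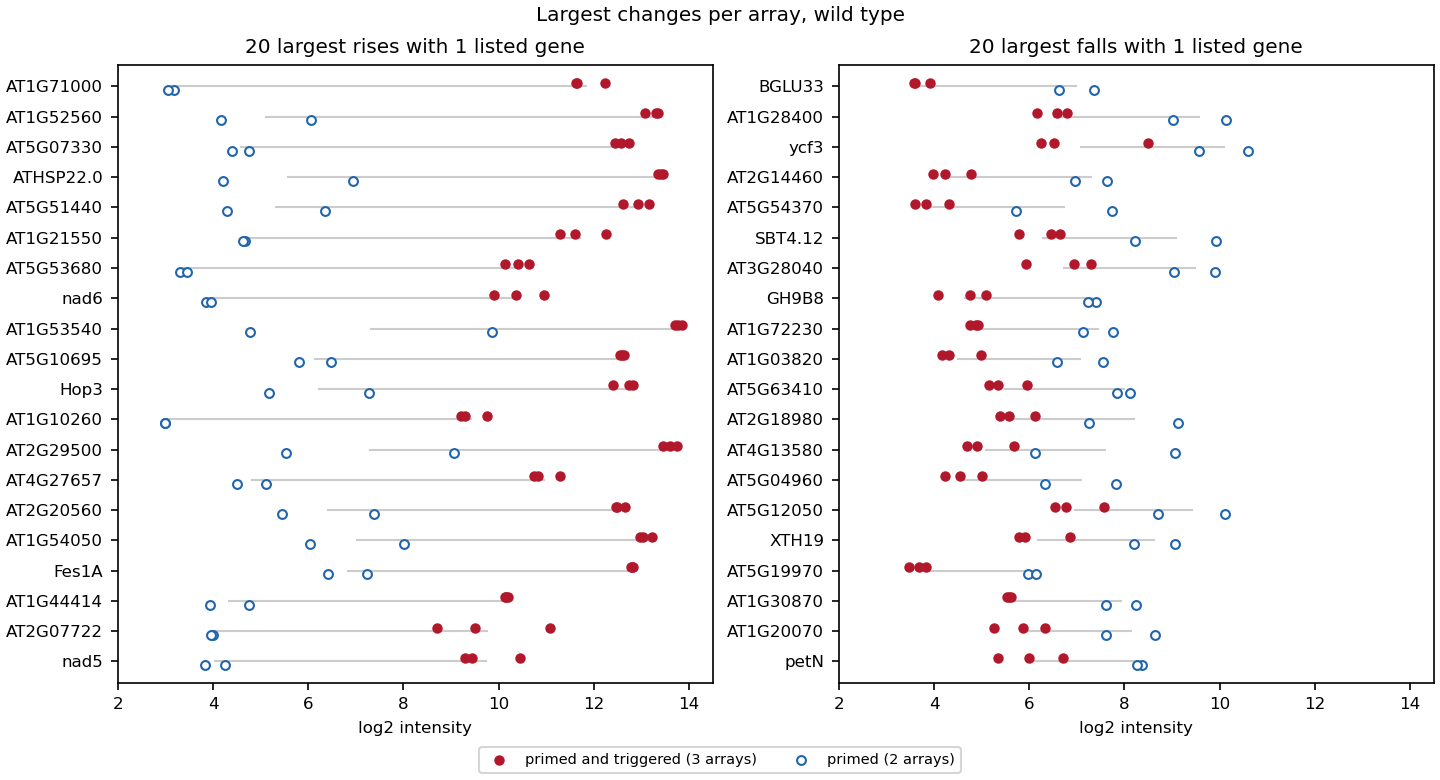
Log2 intensity of the 20 genes with the largest rises (left panel) and the 20 with the largest falls (right panel); filled points are the 3 primed and triggered arrays, open points the 2 primed arrays, and the line joins the group means. Primed and triggered points of the risers lie between 8.71 and 13.86, and those of the fallers between 3.47 and 8.50.

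Small heat shock protein genes, whose products keep unfolding proteins from aggregating, had the highest median change of the lists examined. Of 10 measured members 8 rose and 0 fell, and the list median was 6.17, against 0.013 over all probe sets. AT1G52560 stood at 13.08, 13.31 and 13.34 in the primed and triggered arrays and at 4.16 and 6.06 in the primed arrays, a 281-fold rise (log2 8.14, SE 0.40, limma adjusted p = 1.51e-08). ATHSP22.0, which encodes a small heat shock protein of the endoplasmic reticulum, stood at 13.35, 13.42 and 13.45 in the primed and triggered arrays, against 4.21 and 6.95 in the primed arrays. Its rise of 7.83 (SE 0.52) had an adjusted p of 3.28e-07 from limma. In both genes the heated arrays lay within a narrow band and the primed arrays far below and far apart. 

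AT5G51440 rose by 7.58 (SE 0.41), AT1G54050 by 6.06 (SE 0.43) and AT2G19310 by 3.85 (SE 0.40). The 8 risers together lay between 12.20 and 13.86 in primed and triggered seedlings and between 4.16 and 9.87 in primed seedlings. Their heated levels were thus near the top of the scale, where the highest values of the primed and triggered arrays were 14.14, 14.12 and 14.21. Both members that were not called had other patterns. AT5G47600 had 5.24, 4.06 and 5.67 in primed and triggered arrays and 4.0 and 4.94 in primed arrays, with overlap between the groups (0.52, SE 0.41). AT4G21870 had 9.27, 10.17 and 9.32 in primed and triggered arrays and 10.26 and 10.73 in primed arrays (−0.91, SE 0.31, limma adjusted p = 0.0505).

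**Figure D2:**
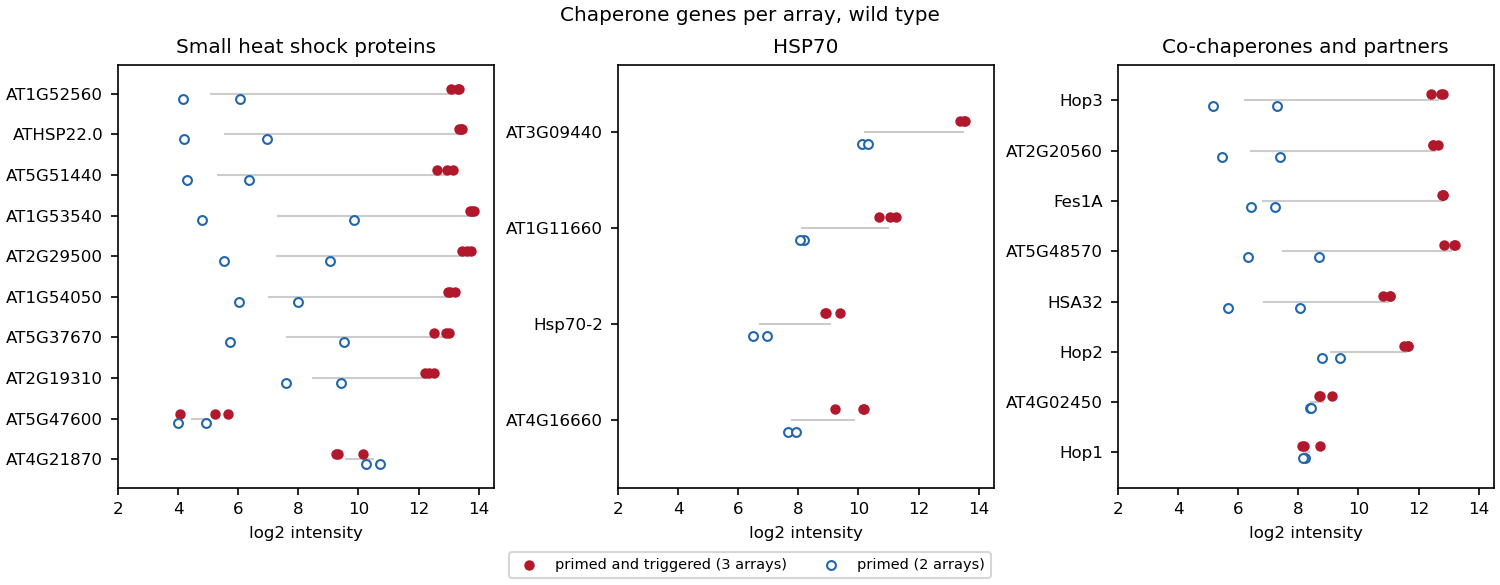
Log2 intensity of the measured small heat shock protein, HSP70 and co-chaperone genes; filled points are the 3 primed and triggered arrays, open points the 2 primed arrays, and the line joins the group means. The 8 rising small heat shock protein genes reach 12.20 to 13.86 in every heated array, whereas the primed points of each gene lie 1.83 to 5.08 apart.

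The primed arrays did not start from the same level. All 10 small heat shock protein genes were higher in primed replicate 2 than in primed replicate 1, with a median gap of 2.01. AT1G53540 had 13.71, 13.78 and 13.86 in primed and triggered arrays, against 4.79 and 9.87 in primed replicates 1 and 2. AT5G37670 had 12.52, 13.01 and 12.92 in primed and triggered arrays, against 5.74 and 9.53 in the primed arrays, and AT2G29500 had 13.46, 13.60 and 13.74 in primed and triggered arrays, against 5.54 and 9.07 in the primed arrays. Within each of these genes the heated arrays were alike while the primed arrays were not. AT2G29500 rose by 6.29 (SE 0.65). AT1G53540 rose by 6.45 (SE 0.93) over all arrays, by 3.91 without primed replicate 1 and by 8.99 without primed replicate 2. AT5G37670 rose by 5.18 (SE 0.72), by 3.29 without primed replicate 1 and by 7.08 without primed replicate 2. These SEs pool the spread of all groups and do not reflect the wide gap between the primed arrays alone. The list median was 4.22 without primed replicate 1, with 8 members called higher, and 7.57 without primed replicate 2, with 8 called. In a fit of the 5 arrays alone 7 were called, and in the bioB-adjusted fit 8 (median 6.47). Over the whole array, 1608 probe sets (7.07%) lay more than 1 log2 unit apart between the primed arrays, 1090 of them higher in replicate 1 and 518 higher in replicate 2.

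HSP70 genes, which encode the central refolding chaperones, rose in 4 of 4 measured members, with a median of 2.61. AT3G09440 stood at 13.39, 13.54 and 13.51 in primed and triggered arrays and at 10.13 and 10.33 in primed arrays, a 9.51-fold rise (3.25, SE 0.11, limma adjusted p = 4.15e-10). AT1G11660 had 11.06, 10.69 and 11.25 in primed and triggered arrays, against 8.19 and 8.06 in primed arrays (2.88, SE 0.20). Hsp70-2 had 8.88, 8.91 and 9.37 in primed and triggered arrays, against 6.49 and 6.94 in primed arrays (2.34, SE 0.23). In these genes the primed arrays lay close together, unlike those of the small heat shock protein genes. AT4G16660 rose by 2.05 (SE 0.32). No HSP70 gene had overlapping groups, and all 4 were called without each of the 5 arrays in turn and in the bioB-adjusted fit. 

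Co-chaperones and partners of HSP70 and HSP90 rose in 7 of 8 measured genes, with a median of 4.85. Hop3, of the adaptors that join HSP70 to HSP90, had 12.41, 12.83 and 12.74 in primed and triggered arrays, against 5.17 and 7.28 in primed arrays, an 86.6-fold rise (6.44, SE 0.46, limma adjusted p = 6.36e-07). Its relative Hop2 rose 5.68-fold (2.51, SE 0.24). Hop1 lay at 8.19, 8.72 and 8.13 in primed and triggered arrays and at 8.23 and 8.14 in primed arrays, with overlapping groups, and was not called (0.17, SE 0.22). The Hop genes thus ranged from no call to one of the 20 largest rises. 

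Fes1A, a partner of cytosolic HSP70, had 12.81, 12.78 and 12.83 in primed and triggered arrays and 6.42 and 7.24 in primed arrays (5.98, SE 0.23, adjusted p = 1.08e-09 with limma). HSA32, a protein required for long-lasting acquired thermotolerance, stood at 11.06, 11.06 and 10.81 in primed and triggered arrays and at 5.65 and 8.07 in primed arrays, a 17.3-fold rise (4.12, SE 0.49). AT5G48570, in the same list, had 12.86, 13.22 and 13.18 in primed and triggered arrays and 6.31 and 8.68 in primed arrays (5.59, SE 0.49). For each of these genes primed replicate 2 was again the higher of the primed arrays, as it was in 7 of the 8. AT2G20560 rose by 6.12 (SE 0.37). The smallest call, AT4G02450 at 0.43 (SE 0.14, limma adjusted p = 0.0491), was lost without primed replicate 1 (0.40), without primed replicate 2 (0.45), without primed and triggered replicate 1 (0.49) or replicate 2 (0.29), and in the bioB-adjusted fit (0.39). The other 6 risers were called in all of these. 

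The next 4 genes belong to no list and were picked by symbol because they rose, so their number says nothing of other genes. SGT1A, a co-chaperone of HSP90 in plant immunity, had 10.99, 10.93 and 10.86 in primed and triggered arrays and 6.82 and 7.39 in primed arrays, 14.2-fold higher (3.83, SE 0.15, limma adjusted p = 1.61e-09). Cpn60beta2, a subunit of the chloroplast chaperonin, stood at 12.52, 12.63 and 12.67 in primed and triggered arrays, against 9.36 and 10.62 in primed arrays (2.62, SE 0.31). BOB1, a chaperone-like protein needed for development and thermotolerance, rose by 2.11 (SE 0.14) and the temperature-induced lipocalin TIL, which protects membranes, by 2.51 (SE 0.21). 

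In the endoplasmic reticulum, 1 of 3 listed folding genes rose, beside 8.51% higher over all probe sets. BZIP28, a membrane-bound transcription factor that senses unfolded proteins there, had 9.77, 9.59 and 9.86 in primed and triggered arrays and 7.64 and 7.54 in primed arrays, 4.45-fold higher (2.15, SE 0.16, limma adjusted p = 7.07e-07). The related factor BZIP60 and the J-domain protein ATERDJ3B were not called, at −0.036 and 0.50. Derlins, which help draw faulty proteins out of the endoplasmic reticulum for degradation, rose in 2 of 3 measured genes. DER1 stood at 11.17, 11.06 and 10.80 in primed and triggered arrays, against 7.80 and 8.21 in primed arrays (3.01, SE 0.19), and DER2.1 rose by 1.16 (SE 0.19), while DER2.2 was not called (0.082). DER1 was called in the bioB-adjusted fit at 3.41 and DER2.1 was not (0.69). 

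Outside the chaperone lists used here, the 20 largest rises included several loci for which the tables used here give no symbol. Their functions, chaperone or other, are not given. AT1G71000 rose most, with 11.64, 12.23 and 11.62 in primed and triggered arrays and 3.18 and 3.05 in primed arrays, a 420-fold difference (8.72, SE 0.18, limma adjusted p = 5.74e-12). AT5G07330 had 12.74, 12.46 and 12.58 in primed and triggered arrays, against 4.41 and 4.75 in primed arrays (8.01, SE 0.23). AT1G21550 rose by 7.07 (SE 0.28), AT5G53680 by 7.02 (SE 0.23), AT5G10695 by 6.45 (SE 0.28), AT1G10260 by 6.43 (SE 0.21), AT4G27657 by 6.14 (SE 0.29) and AT1G44414 by 5.83 (SE 0.22). In these 8 loci the primed arrays were at most 0.83 apart. Probe sets with no listed gene held larger rises still: 254059_at had 13.52, 13.70 and 13.50 in primed and triggered arrays, against 3.72 and 5.23 in primed arrays (9.09, SE 0.30), and 266841_at had 12.31, 12.77 and 12.19 in primed and triggered arrays, against 3.41 and 3.30 in primed arrays (9.07, SE 0.19). All 20 largest rises with 1 gene were called without each of the 5 arrays in turn and in the bioB-adjusted fit. 

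CML37, SRC2, NDB2, XCT and UBA1A belong to no list. They too were picked by symbol because they rose, so their number says nothing of other signalling and stress genes. CML37, a calmodulin-like calcium sensor, had 6.70, 6.73 and 6.33 in primed and triggered arrays and 3.24 and 3.41 in primed arrays (3.26, SE 0.45, limma adjusted p = 0.000233). SRC2, a C2-domain protein, stood at 12.37, 12.23 and 12.54 in primed and triggered arrays, against 9.45 and 10.02 in primed arrays (2.65, SE 0.21). NDB2, an alternative NAD(P)H dehydrogenase of mitochondria, rose by 1.69 (SE 0.25), XCT, a nuclear protein that acts in circadian timing, by 1.48 (SE 0.16), and UBA1A, an RNA-binding protein, by 1.92 (SE 0.15). NDB2 (1.5) was not called in the bioB-adjusted fit and the other 4 were. 

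The zinc finger factor STZ, an abiotic stress regulator and the single measured gene of the antioxidant list, had 9.81, 10.13 and 10.12 in primed and triggered arrays and 5.80 and 4.88 in primed arrays (4.68, SE 0.85, limma adjusted p = 0.00188). Its naive levels, however, were 8.11, 9.03 and 4.67, with the low-bioB array lowest, and in the bioB-adjusted fit its change was 0.79 (adjusted p = 0.398 by limma). Of 3 genes for abscisic acid, cold and dehydration response, 1 was called: the dehydrin COR47 stood at 12.94, 13.16 and 12.80 in primed and triggered arrays and at 11.57 and 10.14 in primed arrays (2.11, SE 0.40). It was called at 1.39 without primed replicate 2 and was not called in the bioB-adjusted fit (0.84). COR15A and COR15B, cold-induced chloroplast proteins, were not called, at 1.64 and 1.08. The list median of 1.64 became −0.0085 without primed replicate 2 and 2.82 without primed replicate 1.

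UDP-glucosyltransferases, which attach sugars to hormones and secondary metabolites, rose in 7 of 47 measured genes and fell in 2, beside 8.51% higher and 12.6% lower over all probe sets, with a median of 0.34, or 0.19 without primed replicate 2. UGT73C1 had 7.59, 6.11 and 7.02 in primed and triggered arrays and 3.79 and 4.25 in primed arrays (2.89, SE 0.42). UGT71C2 had 8.22, 7.56 and 8.04 in primed and triggered arrays, against 5.28 and 5.78 in primed arrays, 5.31-fold higher (2.41, SE 0.27, limma adjusted p = 3.77e-05). UGT72B3 was lower, with 5.0, 4.85 and 5.03 in primed and triggered arrays and 6.69 and 6.47 in primed arrays (−1.62, SE 0.28). UGT71C2 (2.38) was the single one of the 7 risers called in the bioB-adjusted fit, and UGT73C1 stood at 2.40. With arrays centred on their medians 18 members were called higher, 3 without primed replicate 1 and 3 without primed replicate 2. 

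Transcripts of the mitochondrial genome rose after the later heat. Of 16 measured mitochondrion-encoded genes, a group drawn up after the values were seen, 14 rose and 0 fell, with a median of 3.47. The complex I subunit gene nad6 had 9.89, 10.37 and 10.95 in primed and triggered arrays and 3.85 and 3.97 in primed arrays, a 90.2-fold rise (6.49, SE 0.31, limma adjusted p = 1.04e-08). Another complex I gene, nad4L, had 9.16, 9.45 and 10.73 in primed and triggered arrays, against 4.48 and 4.72 in primed arrays (5.18, SE 0.44). In both genes every heated array stood far above every primed array, and replicate 3 was the highest.

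Genes of complex IV rose as well, cox2 by 4.51 (SE 0.46) and cox1 by 3.95 (SE 0.36), and so did ccb452 (4.23, SE 0.52), ccb203 (3.33, SE 0.37) and ccb206 (2.20, SE 0.36) of cytochrome c biogenesis. Other complex I genes covered a wide span, with nad5 at 5.25 (SE 0.52), and at 5.70 with its other probe set, nad9 at 5.02 (SE 0.40), nad1 at 3.61 (SE 0.62), nad7 at 1.31 (SE 0.23) and nad2 at 1.02 (SE 0.18). The intron maturase gene matR rose by 3.08 (SE 0.62) and orfX by 2.16 (SE 0.41). The members that were not called, nad4 and ccb382, lay at 0.31 and 0.58. AT2G07722, a locus outside the group, had 9.50, 8.71 and 11.08 in primed and triggered arrays, against 3.99 and 3.95 in primed arrays (5.79, SE 0.58). Copies of mitochondrial sequence in the nuclear genome cannot be told apart from the organelle's own transcripts here. Relative to the primed mean, the median over the 16 genes was 3.24, 2.78 and 4.37 in primed and triggered replicates 1, 2 and 3, and −0.077 and 0.077 in the primed arrays. It was 3.23, 3.15 and 4.54 in triggered replicates 1, 2 and 3, so replicate 3 was highest in both heated groups. In the bioB-adjusted fit 11 of the 16 were called higher, with a median of 3.81, and nad7 (1.17), nad2 (1.02) and matR (3.15) were not. 

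Plastid-encoded genes went the other way and far less evenly. Of 69 measured genes, 15 fell and 0 rose, beside 12.6% lower and 8.51% higher over all probe sets, with a median of −0.90. The NADH dehydrogenase-like subunit gene ndhF had 2.82, 3.07 and 2.78 in primed and triggered arrays and 5.27 and 5.03 in primed arrays (−2.26, SE 0.46, limma adjusted p = 0.00383). The ribosomal protein gene rps4 had 11.43, 11.62 and 11.23 in primed and triggered arrays, against 12.57 and 12.92 in primed arrays (−1.32, SE 0.21), and the ATP synthase gene atpE fell by 0.58 (SE 0.16). The gene for the large subunit of Rubisco, rbcL, stood at 8.79, 7.68 and 9.61 in primed and triggered arrays and at 10.29 and 10.70 in primed arrays, without overlap but not called (−1.80, SE 0.61, limma adjusted p = 0.052). 

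The heated arrays differed strongly among themselves in this group: the median relative to the primed mean was −1.77, −0.96 and −0.19 in primed and triggered replicates 1, 2 and 3, while the primed arrays lay at −0.064 and 0.064. Triggered replicates 1, 2 and 3 had the same order, at −2.02, −0.71 and 0.024 relative to the primed mean. Leaving out primed and triggered replicate 1 changed the group median to −0.53 with 5 members called lower, and 4 were called lower without primed replicate 1 and 3 without primed replicate 2. With the replicate number as a block, 34 were called lower (median −1.15), and with the 5 arrays alone 4 were. In the bioB-adjusted fit 0 were called lower (median −0.44). The largest falls of the group were ycf3 for photosystem I assembly (−3.0, SE 0.88) and petN of the cytochrome b6f complex (−2.30, SE 0.63). The call of ycf3 was lost without primed replicate 1 (−3.52) or 2 (−2.48) and without primed and triggered replicate 1 (−2.71) or 3 (−2.58), and that of petN without primed replicate 1 (−2.25) or 2 (−2.36) and without primed and triggered replicate 1 (−2.30) or 2 (−1.97). For petN the naive arrays had 6.02, 5.28 and 8.10, with the low-bioB array near the primed level (8.38 and 8.26), and its change in the bioB-adjusted fit was 0.15, against −0.12 for ndhF. The call of atpE was lost without primed replicate 1 (−0.56) or 2 (−0.60) and without primed and triggered replicate 1 (−0.55) or 3 (−0.52).

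**Figure D3:**
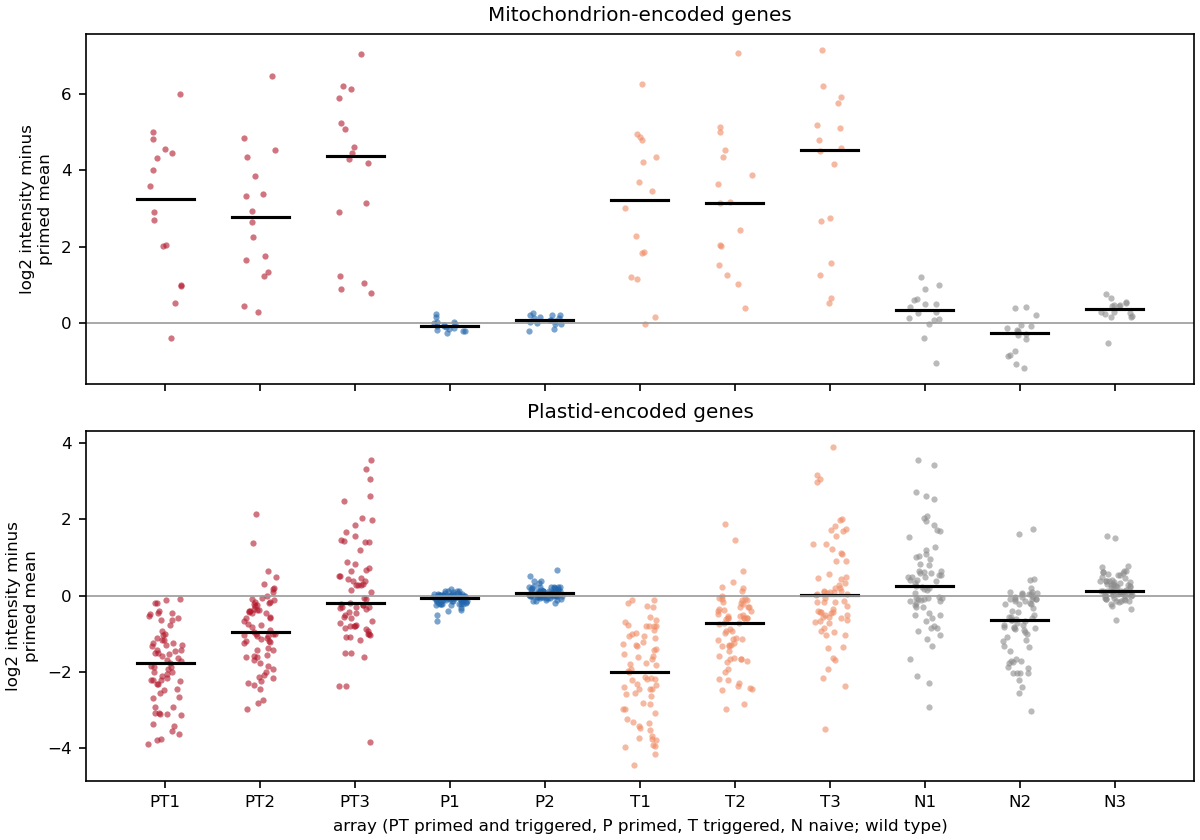
Log2 intensity of each mitochondrion-encoded gene (upper panel, 16 genes) and plastid-encoded gene (lower panel, 69 genes) minus its mean over the 2 primed arrays, by wild-type array; points are genes and black bars medians. Mitochondrial medians are 2.78 to 4.37 in the primed and triggered arrays, and plastid medians spread between −1.77 and −0.19 there.

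In the list of expansins and xyloglucan enzymes, which loosen the wall so that cells can expand, 7 of 12 measured genes fell and 1 rose, with a median of −1.41. EXPA4 had 6.0, 6.79 and 5.96 in primed and triggered arrays and 8.84 and 8.22 in primed arrays, 4.84-fold lower (−2.27, SE 0.29, limma adjusted p = 0.000115). EXPA9 had 5.49, 5.77 and 5.51 in primed and triggered arrays, against 7.13 and 7.07 in primed arrays (−1.51, SE 0.16, adjusted p = 2.41e-05 with limma). Both were also called in the bioB-adjusted fit, at −2.08 and −1.41, as was EXPA15 (−1.32, SE 0.30, and −1.88 in that fit), whose call was lost without primed replicate 1 (−0.71). 

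XTH19, a xyloglucan endotransglucosylase, had 5.91, 6.86 and 5.79 in primed and triggered arrays and 8.20 and 9.06 in primed arrays (−2.45, SE 0.56). Its call was lost without primed replicate 2 (−2.02) and in the bioB-adjusted fit (−0.31), and its relative EXGT-A3 (−1.60, SE 0.31) was not called in that fit (−0.69). XTH26 fell by 1.71 (SE 0.20) and was called there too (−1.22). The expansin-like genes EXLA1 and EXLA2 rose instead, EXLA1 at 8.85, 8.31 and 8.44 in primed and triggered arrays, against 7.16 and 6.85 in primed arrays (1.53, SE 0.32), and EXLA2 by 1.63 (SE 0.51). EXLA2 was not called without primed replicate 1 (1.11) or without primed and triggered replicate 1 (1.34) or 3 (1.59), and EXLA1 was not called in the bioB-adjusted fit (0.97). Over all family members found by symbol after the values were seen, 5 of 18 expansin genes fell and 3 rose, with a median of −0.39 that became 0.0039 without primed replicate 2, and 3 of 10 xyloglucan enzyme genes fell. 

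Enzymes that cut or build wall glucans fell in part. Endoglucanases of glycosyl hydrolase family 9 fell in 6 of 15 genes and rose in 0, with a median of −0.28, or −0.45 without primed replicate 1. The share lower over all probe sets was 12.6%. GH9C1 stood at 4.21, 4.98 and 4.35 in primed and triggered arrays and at 6.81 and 5.78 in primed arrays (−1.78, SE 0.30), and GH9C2 at 5.84, 5.98 and 6.76 in primed and triggered arrays, against 8.59 and 8.18 in primed arrays (−2.19, SE 0.35). GH9B8 had 4.75, 4.09 and 5.09 in primed and triggered arrays and 7.41 and 7.24 in primed arrays (−2.68, SE 0.56), but 5.45, 4.51 and 7.06 in the naive arrays, the low-bioB array being highest. GH9B13 fell by 1.58 (SE 0.42) and lost its call without primed replicate 1 (−0.62) and without primed and triggered replicate 3 (−1.47). Its change was −2.53 without primed replicate 2. Of the 15 genes 0 were called lower in the bioB-adjusted fit. 

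Cellulose synthase-like genes, which make the backbones of xyloglucan and mannan, fell in 5 of 8 and rose in 0. CSLC5 had 5.32, 5.53 and 5.44 in primed and triggered arrays, against 7.04 and 7.56 in primed arrays (−1.87, SE 0.23, limma adjusted p = 9.17e-05), and was the 1 member called lower in the bioB-adjusted fit (−1.01). CSLA03 fell by 1.71 (SE 0.26) and CSLC04 by 1.64 (SE 0.27). COB and THE1 belong to no list or family here and were picked by symbol because they fell. COB, which orients cellulose during expansion, fell by 1.08 (SE 0.17) and was called in the bioB-adjusted fit (−1.38). THE1, a receptor kinase that monitors the wall, fell by 1.42 (SE 0.30), and its call was lost without primed replicate 2 (−1.14) and in that fit (−0.85). 

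Secreted proteases and signalling peptides fell in 5 of 9 subtilase genes and 4 of 11 RALF-like genes, with 0 rising in either family. Over all probe sets 12.6% were lower and 8.51% higher. SBT4.12, a subtilase, had 6.45, 6.64 and 5.78 in primed and triggered arrays and 9.94 and 8.22 in primed arrays, 6.89-fold lower (−2.79, SE 0.39, limma adjusted p = 0.000289). SBT1.3 fell by 1.42 (SE 0.12) and ATSBT5.2 by 1.43 (SE 0.33). The subtilase ARA12, outside the symbol search and picked because it fell, was lower by 1.44 (SE 0.31). SBT4.12 (−3.22) and SBT1.3 (−1.41) were called in the bioB-adjusted fit. The call of ATSBT5.2 was lost without primed replicate 1 (−1.21) and that of ARA12 without primed replicate 2 (−1.24). RALFL31 stood at 5.22, 5.52 and 5.05 in primed and triggered arrays, against 6.86 and 7.48 in primed arrays (−1.90, SE 0.24), and RALFL34, which acts in lateral root initiation, fell by 1.42 (SE 0.18). Neither was called in the bioB-adjusted fit (−1.34 and −0.84). The RALF-like median of −0.30 was 0.10 without primed replicate 1 and −0.52 without primed replicate 2, and −0.53 and −0.16 without primed and triggered replicates 1 and 2. 

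BGLU33, a beta-glucosidase by its symbol, had the largest fall of a gene in the rule's list, with 3.92, 3.58 and 3.59 in primed and triggered arrays and 6.63 and 7.35 in primed arrays, 9.78-fold lower (−3.29, SE 0.31, limma adjusted p = 7.93e-06). AT1G28400 had 6.59, 6.80 and 6.17 in primed and triggered arrays, against 10.14 and 9.02 in primed arrays (−3.06, SE 0.31), and AT2G14460 had 4.77, 4.22 and 3.98 in primed and triggered arrays, against 7.64 and 6.97 in primed arrays (−2.98, SE 0.28). All 3 were called in the bioB-adjusted fit, at −2.53, −3.25 and −2.66, as were AT1G30870 (−2.35, SE 0.31), AT5G63410 (−2.50, SE 0.29), AT1G03820 (−2.58, SE 0.28), AT5G04960 (−2.48, SE 0.36), AT2G18980 (−2.50, SE 0.49) and AT5G54370 (−2.81, SE 0.74). Together with SBT4.12 they are the 10 of the 20 largest falls called there. The call of AT5G54370 was lost without primed replicate 1 (−1.81) or primed and triggered replicate 3 (−2.66), and AT2G18980 changed by −1.57 without primed replicate 1. 

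The largest falls that the bioB-adjusted fit did not call were AT3G28040 (−2.75, SE 0.41), AT1G72230 (−2.59, SE 0.33), AT4G13580 (−2.49, SE 0.63), AT5G12050 (−2.45, SE 0.51), AT5G19970 (−2.40, SE 0.42) and AT1G20070 (−2.31, SE 0.59), besides XTH19, GH9B8, ycf3 and petN. AT4G13580 and AT1G20070 also lost their calls without primed replicate 1 (−1.02 and −1.80) and AT5G12050 without primed replicate 2 (−1.75), while AT4G13580 changed by −3.97 without primed replicate 2. Among probe sets with no listed gene, 264014_at had 5.38, 4.94 and 5.89 in primed and triggered arrays and 9.39 and 10.02 in primed arrays (−4.30, SE 0.41, and −4.24 in the bioB-adjusted fit, where it was called). Probe set 259790_s_at fell by 3.99 (SE 0.65) and was not called there (−1.38). 

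**Figure D4:**
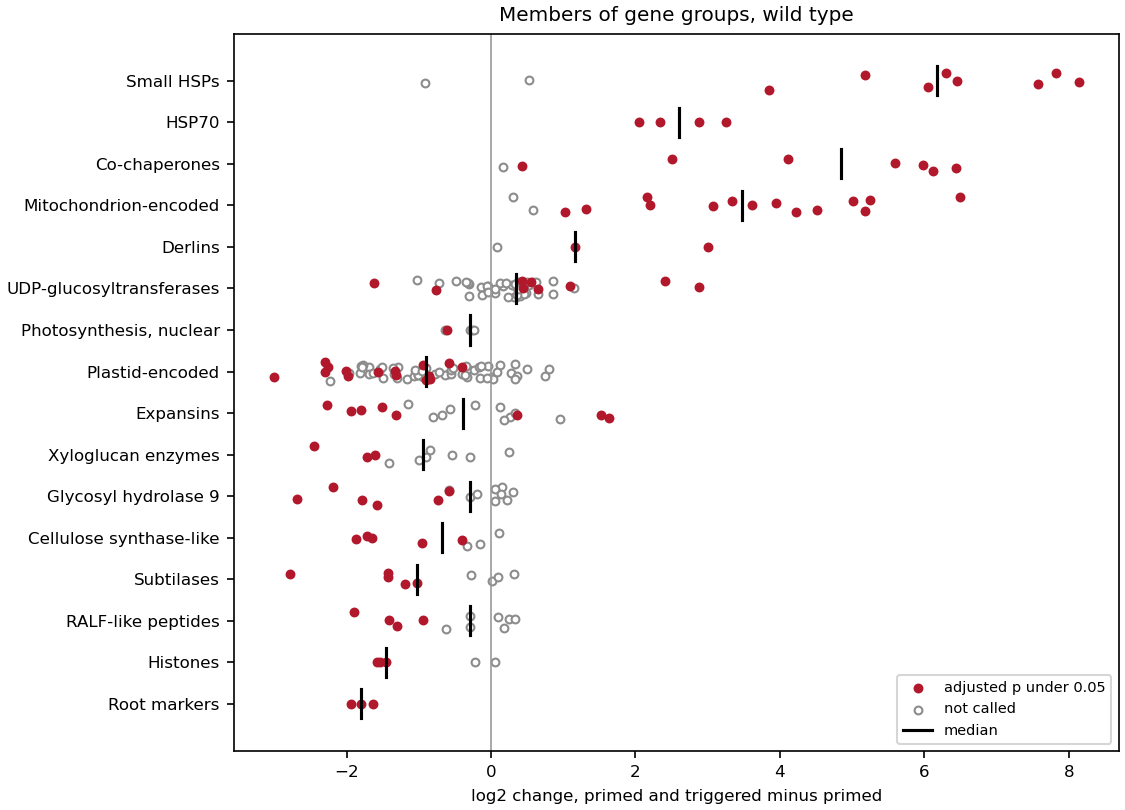
Log2 change (primed and triggered minus primed, wild type) of every measured member of 16 gene groups; filled points were called at an adjusted p under 0.05, open points were not, and black bars are medians. Medians run from 6.17 for small heat shock proteins to −1.80 for root markers.

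The few root markers that could be measured were lower after the later heat, and root RNA as a whole was not tested. All 3 measured root and root hair markers of the 8 listed fell, with a median of −1.80, and their summed linear level was 1802 to 3335 in primed and triggered arrays and 7040 to 7842 in primed arrays. PYK10, the root beta-glucosidase stored in endoplasmic reticulum bodies, had 10.78, 11.68 and 11.14 in primed and triggered arrays and 12.90 and 12.75 in primed arrays, 3.09-fold lower (−1.63, SE 0.23, limma adjusted p = 0.000312). The root hair expansins EXPA7 and EXPA18 fell by 1.94 (SE 0.27) and 1.80 (SE 0.21), and both belong to the expansin list as well. NAI2, which builds the same bodies, stood at 8.51, 8.75 and 8.23 in primed and triggered arrays, against 10.10 and 10.15 in primed arrays (−1.63, SE 0.16), and NAI1, their transcription factor, fell by 1.21 (SE 0.25). NAI2 and NAI1 belong to no list and were picked by symbol because they fell, so their falls say nothing of other genes. In the bioB-adjusted fit PYK10 (−1.59), EXPA7 (−2.93), EXPA18 (−1.95) and NAI2 (−1.62) were called and NAI1 (−0.94) was not. The part of root RNA in the falls of wall genes was not tested. 

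Among nuclear photosynthesis genes, 1 of 5 measured of the 28 listed fell, beside 12.6% lower over all probe sets. The list median of −0.29 became −0.60 without primed replicate 1. PRK, the phosphoribulokinase of the Calvin cycle, had 12.07, 12.22 and 12.15 in primed and triggered arrays and 12.65 and 12.86 in primed arrays (−0.61, SE 0.13, limma adjusted p = 0.00448), and its call was lost without primed replicate 2 (−0.51) and in the bioB-adjusted fit (−0.71). RCA was not called (−0.29, SE 0.11). Summed linear levels of the 5 genes were 34590 to 36993 in primed and triggered arrays and 44507 to 48764 in primed arrays. Of 5 listed guard cell and stomatal lineage markers, the 3 measured were FMA, SPCH and MUTE. They summed to 69 to 92.2 in primed and triggered arrays and 67.7 to 119 in primed arrays, and none was called. These low levels say little of guard cells.

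Histone genes fell in 3 of 5 measured members, all of them for histone H2B, which packages DNA. The measured members were mostly H2B genes, so the falls are not particular to H2B. HTB4, also for H2B, was not called (−0.23), and neither was HTR12 (0.058). HTB2 had 6.67, 6.84 and 6.64 in primed and triggered arrays and 8.18 and 8.40 in primed arrays (−1.57, SE 0.23, limma adjusted p = 0.000428), HTB1 fell by 1.53 (SE 0.31) and HTB11 by 1.46 (SE 0.15). HTB11 (−1.07) was called in the bioB-adjusted fit, and HTB2 and HTB1 were not. Of 2 measured cell cycle genes none was called (median −0.031, and 0.49 in the bioB-adjusted fit). BRH1, a RING finger gene that responds to brassinosteroids, belongs to no list and was picked because it fell. It was lower by 2.21 (SE 0.34) and was not called in the bioB-adjusted fit (−1.95). 

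Hormone and secondary metabolism lists held few measured genes. Of 3 auxin response genes, GH3.3, which conjugates auxin to amino acids, had 7.27, 8.48 and 7.60 in primed and triggered arrays and 6.07 and 6.97 in primed arrays (1.26, SE 0.37), and the homeobox factor HAT2 had 7.51, 7.16 and 7.18 in primed and triggered arrays, against 8.13 and 8.89 in primed arrays (−1.22, SE 0.40). HAT2 lost its call when any 1 of the 5 arrays was left out (−0.84 without primed replicate 2 and −1.61 without primed replicate 1, for example) and stood at 0.12 in the bioB-adjusted fit. GH3.3 lost its call without primed replicate 1 (0.81) or primed and triggered replicate 2 (0.91) and in that fit (1.68). The list median of −1.05 was −0.41 without primed replicate 2, −1.61 without primed replicate 1, and −0.67 and −0.56 without primed and triggered replicates 1 and 3. 

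Of 2 flavonoid genes, the glycosyltransferase gene UF3GT was called higher (0.67, SE 0.17), with a list median of 0.30. Its call was lost without primed replicate 1 (0.67) or 2 (0.66), without primed and triggered replicate 3 (0.58), with the 5 arrays alone, with array weights and in the bioB-adjusted fit (0.58). The 2 defence genes, the 1 glucosinolate gene and the clock gene GI were not called (0.017, −0.46 and 0.84), and GI stood at 2.13 without primed replicate 1 and at −0.44 without primed replicate 2. In the bioB-adjusted fit GI stood at −2.10 and the glucosinolate gene at 0.068. Of 3 reference genes, AT2G28390 was called at −0.40 (SE 0.13), with a list median of −0.11 that turned to 0.061 when arrays were centred on their medians and to 0.060 without primed replicate 1. Its call was lost without primed replicate 1 (−0.36) or 2 (−0.44), without primed and triggered replicate 1 (−0.36) or 3 (−0.41), and in the bioB-adjusted fit (−0.20). Lists of heat shock factors, of HSP90, HSP100 and chaperonins, of raffinose synthesis and of hypoxia response had no member with a listed probe set, and neither had HSFA2. The chaperonin subunit gene Cpn60beta2, given above, is outside that list.

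To set this response beside that of seedlings with no previous heat, the triggered and naive arrays were used, which share no array with the primed comparison. Both responses nevertheless took their spread from the same fit. Same-numbered arrays of the heated groups also deviated together (correlations of 0.563, 0.642 and 0.656), so calls in the responses are not independent. In triggered against naive seedlings 3502 probe sets were called (15.4%), 1341 higher (5.9%) and 2161 lower (9.5%). Of the 4802 probe sets called in primed seedlings 2635 (54.9%) were called in the same direction in unprimed ones, which was 75.2% of the calls there, and 0 were called in opposite directions. The difference between the responses, tested as a contrast of all 4 groups, was called for 4 probe sets (0.0176%), with 1065 (4.68%) at an unadjusted p under 0.05. Its median SE of 0.25 was larger than that of either response (0.19 in primed and 0.17 in unprimed seedlings). The number called moved with single arrays: it was 2, 10 and 1 without primed and triggered replicates 1, 2 and 3, 29 and 17 without primed replicates 1 and 2, 1, 4 and 6 without triggered replicates 1, 2 and 3, and 1, 4 and 16 without naive replicates 1, 2 and 3. In a fit of the 11 wild-type arrays alone 0 were called by limma.

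Chaperone genes rose with heat in both settings. The 8 rising small heat shock protein genes had group means of 12.35 to 13.78 in primed and triggered seedlings and of 5.11 to 8.50 in primed seedlings, beside 12.48 to 13.78 in triggered and 3.57 to 7.97 in naive seedlings. The list median change was 6.17 in primed and 8.01 in unprimed seedlings, with 9 of 10 differences below 0 and 0 called. Over all probe sets 11310 of 22746 differences were below 0. The 10 genes share the same 2 primed arrays and all were higher in primed replicate 2, so the 9 are not separate observations. For AT1G53540 the difference between the responses was −3.42 and for AT5G37670 −2.54, neither called, and both include the high value of primed replicate 2 given above. HSP70 genes changed by a median of 2.61 in primed and 2.38 in unprimed seedlings, and co-chaperones by 4.85 in primed and 5.79 in unprimed ones. Organelle genes changed by 3.47 in primed and 3.33 in unprimed seedlings for the mitochondrion and −0.90 in primed and −0.83 in unprimed seedlings for the plastid. In both settings the plastid medians of the heated arrays followed the replicate number, as given above. Expansins and xyloglucan enzymes changed by −1.41 in primed and −1.25 in unprimed seedlings, and root markers by −1.80 in primed and −1.30 in unprimed ones. No member of these 7 groups was called in the difference.

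**Figure D5:**
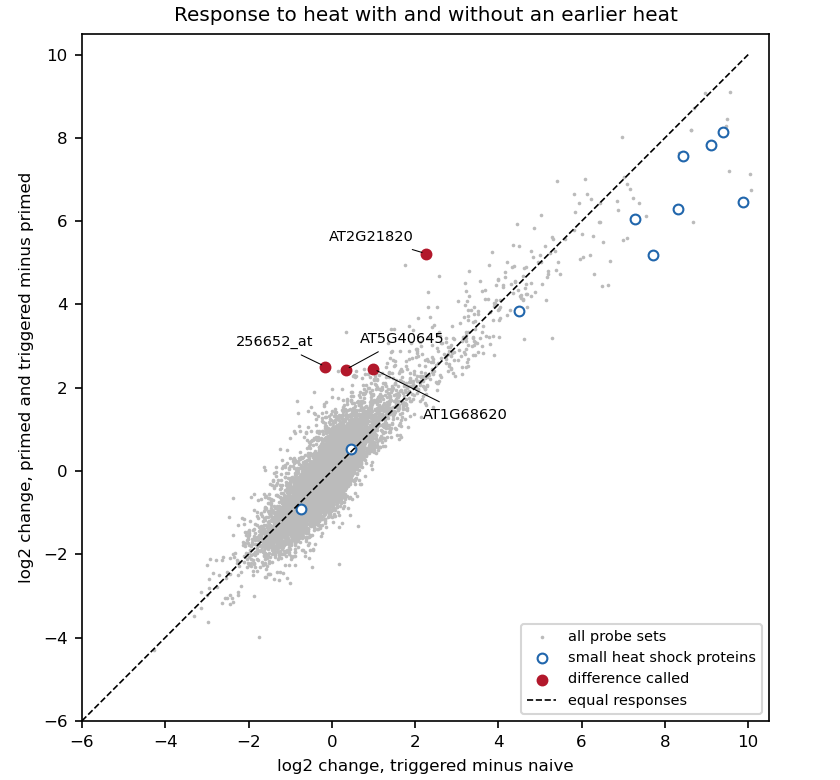
Log2 change with heat of every probe set in primed seedlings (vertical axis, primed and triggered minus primed) against that in unprimed seedlings (horizontal axis, triggered minus naive), with the line of equal responses. Small heat shock protein genes (open points) reach 8.14 on the vertical axis, with 9 of 10 below the line, and the 4 probe sets called in the difference (filled points) lie above it.

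All 4 probe sets called in the difference rose more after the later heat in primed seedlings. AT2G21820 had 9.98, 9.22 and 9.68 in primed and triggered arrays and 4.50 and 4.32 in primed arrays, and 6.57, 5.85 and 7.05 in triggered arrays and 4.34, 3.96 and 4.39 in naive arrays. Its rise was 5.22 (SE 0.29) in primed and 2.26 (SE 0.26) in unprimed seedlings, a difference of 2.96 (SE 0.39, limma adjusted p = 0.0235). Starting levels overlapped here, and the heated levels did not. 

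Probe set 256652_at, with no listed gene, had 8.99, 9.34 and 8.91 in primed and triggered arrays and 6.38 and 6.76 in primed arrays, and 6.67, 6.13 and 6.62 in triggered and 6.70, 6.55 and 6.62 in naive arrays. It rose by 2.51 (SE 0.19) in primed seedlings and was not called in unprimed ones (−0.15, SE 0.17), a difference of 2.66 (SE 0.25, adjusted p = 0.00241 with limma). AT5G40645 had 4.48, 5.34 and 4.99 in primed and triggered arrays and 2.51 and 2.50 in primed arrays, and 2.78, 3.15 and 2.75 in triggered and 2.52, 2.56 and 2.61 in naive arrays, a difference of 2.10 (SE 0.26, limma adjusted p = 0.0158). Its values outside the primed and triggered group were near the lowest on the arrays. AT1G68620 had 7.77, 7.75 and 7.69 in primed and triggered arrays and 5.14 and 5.42 in primed arrays, and 6.94, 6.83 and 7.07 in triggered and 5.96, 5.89 and 6.0 in naive arrays, a difference of 1.46 (SE 0.18, limma adjusted p = 0.0158). For this gene both primed arrays lay below all naive arrays (−0.67 between their means).

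UGT71C2 came close to a call in the difference. Its triggered arrays had 5.83, 5.22 and 5.64 and its naive arrays 5.79, 5.05 and 5.39, so that its change was 2.41 in primed seedlings and 0.16 (SE 0.24) in unprimed ones, a difference of 2.25 (SE 0.36, limma adjusted p = 0.0878). Arrays that were both primed and triggered stood above all other wild-type arrays in this gene. AT1G11660, of the HSP70 list, rose by 2.88 in primed and 1.64 in unprimed seedlings (difference 1.23, SE 0.27, limma adjusted p = 0.38), and SRC2 by 2.65 in primed and 1.51 in unprimed ones (difference 1.14, SE 0.29, limma adjusted p = 0.593). Neither difference was called, and neither gene stands for others. In the HSP70 list 2 of 4 differences were below 0, with a median difference of −0.0032.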

How the data were processed

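The authors deposited linear intensity values made with RMA per the submitters' processing notes, whose version and settings no source used here gives. RMA normalizes arrays together, so a change of total RNA in a seedling stays hidden. The deposited intensities (3.94 to 19602, 0 zeros) were turned to log2 without a pseudocount. Control probe sets (64) were removed. Of the 22746 left, 13513 had 1 gene in the platform annotation (13436 matched to RefSeq), 503 had several and 8730 were not listed. With limma 3.58.1 (R 4.3.3), means of 7 groups (17 arrays, 10 residual and 2.92 prior degrees of freedom) gave 4 contrasts, adjusted with Benjamini-Hochberg. The code was tested on simulated data.

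Members and lists were chosen with earlier results of these data known. Of 283 entries in 22 lists, 66 were measured, in 17 lists. A gene with several probe sets was read from the brightest. Named are list members, the 20 largest rises and falls (1 gene, at least 2-fold, no overlap between the groups), and probe sets called in the difference. Organelle groups, 9 families and genes named by symbol were added after values were seen. The number of arrays limits precision. Alternatives covered scaling, pseudocount, filter, prior, weights, bioB, replicate block, threshold, arrays fitted and each array left out. Promoters were not analysed here.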

Additional observations from a re-analysis of the deposited data

Results flagged for a closer look

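The difference between the responses to heat in primed and unprimed wild-type seedlings passed the threshold for 4 probe sets, each with the larger rise in primed seedlings. The log2 rise of AT2G21820 was larger by 2.96 in primed seedlings, that of 256652_at by 2.66, that of AT5G40645 by 2.10 and that of AT1G68620 by 1.46. Leaving out 1 wild-type array at a time kept 256652_at called every time, and each of the other 3 lost its call without some array. Without primed and triggered replicate 3, limma gave an adjusted p of 0.00613 for 256652_at, 0.105 for AT2G21820, 0.0748 for AT5G40645 and 0.0662 for AT1G68620. In the bioB-adjusted fit the adjusted p by limma was 0.0452 for 256652_at, 0.121 for AT2G21820, 0.121 for AT5G40645 and 0.121 for AT1G68620. In hsfa2 seedlings 256652_at had means of 6.24 in primed and triggered, 6.37 in triggered and 6.43 in naive arrays (n = 2 each), with no primed hsfa2 array to set beside them.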

How the results depend on the processing

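Of 131 genes and probe sets recomputed under 21 other settings, 127 kept their direction in all of them and 75 also kept their side of the threshold, and 45 of the 125 called ones lost their call in the bioB-adjusted fit. The count of 4802 calls became 1873 with the 5 arrays alone, 954 in the bioB-adjusted fit, 2408 at an adjusted p under 0.01, and 3088 to 5263 with 1 array left out. Calls higher became 836, 554 and 990 in these first 3 settings, 4208 with arrays centred on their medians and 1213 to 2232 with 1 array left out. Calls lower became 1037, 400 and 1418 in the same 3 settings, 1883 with centring and 1875 to 3160 with 1 array left out. Calls at least 2-fold higher became 523 in the bioB-adjusted fit (807 to 979 with 1 array left out), and those at least 2-fold lower became 353 there, 756 with the 5 arrays alone, 758 with log2(intensity + 16) and 1112 to 1296 with 1 array left out. The difference, 4 calls, had 0 in the wild-type arrays alone, 1 in the bioB-adjusted fit, 1 at an adjusted p under 0.01 and 1 to 29 with 1 array left out. Direction turned in the bioB-adjusted fit for petN (0.15), HAT2 (0.12), Hop1 (−0.30) and the medians of auxin (0.41), cold and dehydration (−0.42) and expansin genes (0.051), for lists with no call there too (GI −2.10, glucosinolate gene 0.068, cell cycle median 0.49), and with centring for the reference (0.061) and cell cycle medians (0.14). With 1 array left out, Hop1 ranged over −0.020 to 0.28, GI over −0.44 to 2.13 and the medians over −0.0085 to 2.82 (cold and dehydration), −0.44 to 0.0039 (expansins), −0.53 to 0.10 (RALF-like) and −0.29 to 0.060 (reference genes). The causes were not tested. A filter on low means removed AT5G40645, which then has no value. Deviations of same-numbered arrays correlated at −0.097 and −0.288 between primed and triggered and primed arrays, at 0.563, 0.642 and 0.656 between primed and triggered and triggered arrays, and at −0.162, 0.567 and 0.184 between triggered and naive arrays. Same-numbered arrays thus deviated together in every pair of the heated groups, but not in every pair within either response. With the replicate block 5236 probe sets were called, 2109 higher and 3127 lower, and 4 in the difference, the same 4 (limma adjusted p 0.0104, 0.0104, 0.0301 and 0.0301 for 256652_at, AT2G21820, AT5G40645 and AT1G68620). Signals near the bottom or top of the scale limit the size of changes, and 2 primed arrays limit all of them.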
